A study of Homo sapiens with 8 samples.

Results

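The metallothionein genes of human chromosome 16 were followed through 8 RNA-sequencing libraries of acute myeloid leukemia cells. The 8 genes, MT2A, MT1E, MT1F, MT1G, MT1H, MT1M, MT1X and MT1A, were taken by name from a count table of 33045 gene names, and all 8 were found. They were picked with their reads and their ratios between an inhibitor of LSD1 and vehicle in view, so those ratios are given as descriptions without a test.

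KASUMI-1 is a leukemia line that carries the RUNX1-RUNX1T1 fusion, and the submitters call it sensitive to the inhibitor. THP-1 is a monocytic leukemia line, which they call resistant. KASUMI-1 cells received the LSD1 inhibitor DDP38003 (LSD1i) at 0.5 µM or vehicle for 6 or 72 h, and THP-1 cells received the same dose or vehicle for 24 or 72 h. The times were chosen as the first and last at which mTOR signalling had changed. The 8 libraries, each from the total RNA of 1 culture condition, thus form 4 pairs of LSD1i and vehicle without a replicate library.

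Metallothioneins are small, cysteine-rich proteins that hold zinc and copper ions in clusters of thiolates and also bind cadmium. Their genes are switched on by zinc through MTF1, a zinc-finger transcription factor that binds metal response elements in their promoters, and they also answer to glucocorticoids and oxidative stress. In most tissues MT2A and several MT1 genes are the forms in use, and blood monocytes induce them when given zinc. LSD1, the product of KDM1A, removes methyl groups from histone H3 lysine 4 and is part of repressor complexes in myeloid cells.

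The 8 genes lay between positions 55200000 and 55275608 of chromosome 16 in the NCBI36 build of the count table, in the order MT2A, MT1E, MT1M, MT1A, MT1F, MT1G, MT1H and MT1X. MT1G lay on the minus strand and the other 7 on the plus strand. MT2A covered 55200000 to 55200909 and MT1X, the last of the row, covered 55267603 to 55275608. The sequences below come from a later build, GRCh38, and their positions are not those of the count table.

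The metal response elements of these promoters are shown because they are the sites through which zinc acts. RefSeq promoters (GRCh38.p14) were at hand for 3 of the 8 genes. The 250 bases before the start site follow, 5′ to 3′ on the plus strand, for MT2A (chr16:56608334-56608583), MT1X (chr16:56682220-56682469) and MT1H (chr16:56669564-56669813). Capitals mark the core of the element, TGCACNC or TGCGCNC, on either strand.
MT2A: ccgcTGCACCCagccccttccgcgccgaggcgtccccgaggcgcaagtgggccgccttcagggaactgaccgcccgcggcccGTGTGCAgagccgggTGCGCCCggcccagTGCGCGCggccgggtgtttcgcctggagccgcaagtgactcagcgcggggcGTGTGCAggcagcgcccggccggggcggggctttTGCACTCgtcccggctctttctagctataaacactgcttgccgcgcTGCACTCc
MT1X: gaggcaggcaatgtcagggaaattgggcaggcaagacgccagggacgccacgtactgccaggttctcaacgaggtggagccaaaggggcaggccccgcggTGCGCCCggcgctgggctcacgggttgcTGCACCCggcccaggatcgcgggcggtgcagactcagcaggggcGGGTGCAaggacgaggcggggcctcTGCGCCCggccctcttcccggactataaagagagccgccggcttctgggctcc
MT1H: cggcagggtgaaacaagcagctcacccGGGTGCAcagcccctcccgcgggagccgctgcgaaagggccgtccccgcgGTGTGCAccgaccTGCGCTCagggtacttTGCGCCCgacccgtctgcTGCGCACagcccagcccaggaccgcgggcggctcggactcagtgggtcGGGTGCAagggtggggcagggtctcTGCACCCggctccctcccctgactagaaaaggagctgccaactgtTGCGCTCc

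In windows of 300 bases, from 250 before to 50 after the start site, MT2A and MT1H held 8 cores each, 5 on the plus strand and 3 on the minus strand, and MT1X held 4. Of the MT2A cores, 1 lay 31 bases past the start site, outside the bases shown. Among 35116 RefSeq promoters of the same length, 29.6% held at least 1 core, 0.601% held at least 4 and 0.0199% held at least 8. That last share was 7 promoters, with MT2A and MT1H among them. The comparison was not matched for GC content, which was 72% in the window of MT2A, 68.3% in MT1H and 67% in MT1X. MT1H, whose promoter held as many cores as that of MT2A, had at most 3 reads in any of the 8 libraries, a count that sequence shared with other genes may lower. MT2A also held TGACTCA, the AP-1 site, 104 bases before the start site, overlapping a TGACNNNGC match. The AP-1 letters stood in 4.95% of promoters on either strand and TGACNNNGC, the core of the antioxidant response element, in 13.3%. A TATAAA match stood near the start site in MT2A and MT1X but not in the window of MT1H, and 11.5% of all promoters had one.

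The coding sequences of the 5 expressed genes are shown because their likeness bears on how reads were assigned. They are from GENCODE 29 on GRCh38, 5′ to 3′ in the sense of the gene, and capitals mark the bases that differ from MT2A. The coding parts span, with introns, chr16:56608656-56609354 for MT2A, chr16:56682541-56684049 for MT1X, chr16:56625852-56626971 for MT1E, chr16:56658059-56659164 for MT1F and chr16:56666879-56667993 (minus strand) for MT1G.
MT2A: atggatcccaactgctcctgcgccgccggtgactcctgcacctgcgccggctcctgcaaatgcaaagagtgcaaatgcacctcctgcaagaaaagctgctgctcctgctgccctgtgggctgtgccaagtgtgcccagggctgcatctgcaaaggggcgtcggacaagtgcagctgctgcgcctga
MT1X: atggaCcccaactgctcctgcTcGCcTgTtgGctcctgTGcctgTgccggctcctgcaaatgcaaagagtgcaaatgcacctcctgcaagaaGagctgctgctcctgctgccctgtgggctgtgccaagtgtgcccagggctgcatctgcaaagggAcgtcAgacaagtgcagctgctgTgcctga
MT1E: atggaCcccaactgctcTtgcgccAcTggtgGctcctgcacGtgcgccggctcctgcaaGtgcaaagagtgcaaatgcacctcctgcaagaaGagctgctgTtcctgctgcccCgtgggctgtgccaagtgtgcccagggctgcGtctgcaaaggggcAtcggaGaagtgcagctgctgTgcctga
MT1F: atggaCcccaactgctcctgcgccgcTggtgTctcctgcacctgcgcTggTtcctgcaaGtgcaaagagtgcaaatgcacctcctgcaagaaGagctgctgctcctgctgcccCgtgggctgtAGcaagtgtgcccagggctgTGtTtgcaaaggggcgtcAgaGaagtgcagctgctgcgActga
MT1G: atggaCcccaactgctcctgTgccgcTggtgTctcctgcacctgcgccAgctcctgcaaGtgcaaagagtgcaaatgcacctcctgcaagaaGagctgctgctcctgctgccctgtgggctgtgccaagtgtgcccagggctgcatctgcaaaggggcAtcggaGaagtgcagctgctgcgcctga

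Each of the 8 coding sequences was 186 bases long and held 61 codons before the stop, of which 20 encode cysteine. MT1G had 9 differences from MT2A, the fewest, with 95.2% identity, and MT1M had 19, the most, with 89.8%. The 21 pairs of MT1 genes were 88.7% to 94.6% identical. MT1G and MT1X shared an unbroken run of 96 bases in their transcripts, the longest among the MT1 pairs, whereas MT2A shared at most 65 bases with any MT1 gene. Of all 50-base windows along the transcript, 95.1% in MT2A, 94.7% in MT1E and 96.4% in MT1F occurred in no other GENCODE gene. That share was 79.8% in MT1G and 54.9% in MT1X, so MT1X is the expressed gene with the least unique sequence. With windows of 100 bases the share was 100% in MT2A, MT1E, MT1F and MT1G and 80.9% in MT1X. These transcripts differ from the gene models of the counts, most of all for MT2A (786 bases, against 397 in the model) and MT1F (690 against 441). Those of MT1E (704 against 794), MT1X (450 against 482) and MT1G (406 against 399) were nearer. The shares thus cover sequence that was not counted, and not equally in each gene. The sources used here do not give the read length. MT1H, a gene with few reads, had 79.6% of its 50-base windows and 96.6% of its 100-base windows in no other gene. The recorded counting command had no option for reads that map to several places, so MT1X, MT1H and MT1G may be undercounted more than the rest.

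Depth ran from 23722972 to 45970766 counted reads per library, and both ends of that range were in the KASUMI-1 72 h pair, the high end with LSD1i and the low end with vehicle. RUNX1T1 stood at 76.2 to 106 CPM (counts per 1000000 reads of TMM-scaled depth) in the KASUMI-1 libraries and at most 0.201 CPM in THP-1, whereas HOXA9 stood at 53.2 to 56.3 CPM in THP-1 and at most 1.51 CPM in KASUMI-1. MEIS1, a THP-1 marker, was at or below 0.112 CPM in all 8 libraries. Among the markers of other blood cells given here, HBB was at 0 everywhere, and NKG7 reached the highest level, up to 14.01 CPM. CD86, a known LSD1-responsive gene, rose with LSD1i in both lines (log2 change 4.16, edgeR adjusted p = 2.22e-08 in KASUMI-1 and 5.55, edgeR adjusted p = 8.07e-11 in THP-1). KDM1A mRNA itself did not pass the test in either line.

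In vehicle-treated cells different metallothioneins led in the 2 lines. Per length, as CPM per kilobase of gene model (RPKM), MT2A led in KASUMI-1 and MT1E led in THP-1. In KASUMI-1, vehicle libraries at 6 and 72 h held MT2A at 137 and 108 RPKM, MT1X at 35.01 and 17.7 RPKM, MT1G at 2.63 and 1.004 RPKM and MT1E at 1.65 and 0.897 RPKM. MT1F had no read in either. The ranges of MT1G and MT1E overlapped, and the other neighbours in this order did not. In THP-1, vehicle libraries at 24 and 72 h held MT1E at 99.3 and 89.2 RPKM, MT1F at 62.0 and 77.0 RPKM, MT2A at 32.1 and 56.1 RPKM, MT1X at 25.2 and 21.4 RPKM and MT1G at 19.9 and 20.2 RPKM. No 2 neighbours in that order overlapped between their 2 vehicle libraries, although MT1X and MT1G came close. In THP-1 with LSD1i at 72 h the first 2 changed places, with MT1F at 92.7 RPKM and MT1E at 81.7 RPKM. RPKM is not corrected for reads lost to shared sequence, so MT1X and MT1G may stand too low in these orders. The place of MT1X below MT2A in THP-1 is therefore uncertain.

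**Figure D1:**
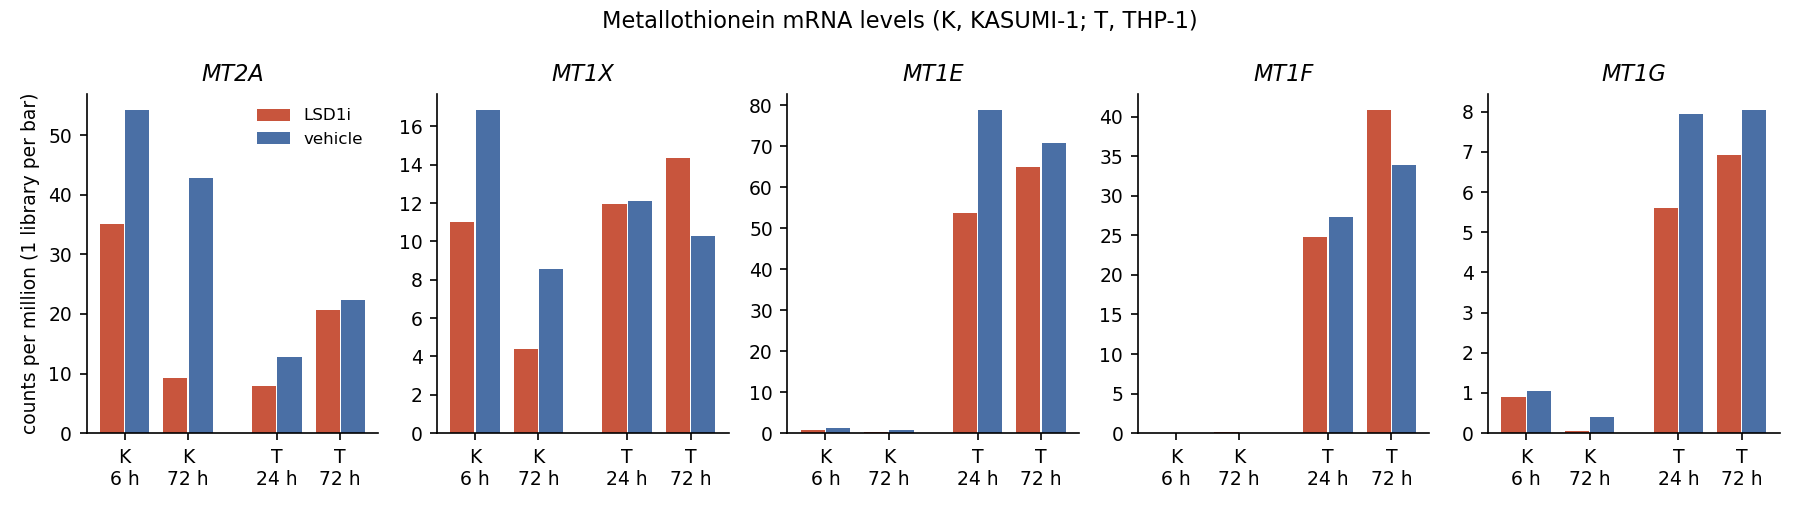
Metallothionein mRNA in TMM-scaled CPM (y axis, linear, its own range in each panel) for the 5 expressed genes, with 1 library per bar, LSD1i in red and vehicle in blue, by line and time (K, KASUMI-1; T, THP-1). MT1E and MT1F bars are close to 0 in KASUMI-1, and the MT2A bar of KASUMI-1 with LSD1i at 72 h stands at 9.23 CPM beside 42.8 CPM with vehicle.

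The difference between lines was estimated in the 4 vehicle libraries with an edgeR fit over 15456 genes. The genes were picked with these reads in view, so their differences are a description without a test, and the 2 lines shared only the 72 h time. Of the 8 members, 5 passed the filter on low counts, MT1F through its THP-1 reads alone. MT2A averaged 48.5 ± 8.12 CPM in KASUMI-1 and 17.5 ± 6.72 CPM in THP-1 (SD, n = 2 each), a log2 difference of 1.47 ± 0.26 (approximate SE). MT1E averaged 1.01 ± 0.424 CPM in KASUMI-1 and 74.8 ± 5.70 CPM in THP-1, a log2 difference of -6.14 ± 0.28. MT1G averaged 0.725 ± 0.459 CPM in KASUMI-1 and 7.999 ± 0.0755 CPM in THP-1, a log2 difference of -3.37 ± 0.36. The MT2A libraries of the lines did not overlap, nor did those of MT1E or MT1G. At 72 h alone, the shared time, MT2A stood at 42.8 CPM in KASUMI-1 and 22.3 CPM in THP-1.

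MT1F had 0 reads in the 2 KASUMI-1 vehicle libraries and 2729 reads in the 2 of THP-1. It was at least 614-fold lower in KASUMI-1, with the KASUMI-1 sum set at 3 reads. MT1X averaged 12.7 ± 5.89 CPM in KASUMI-1 and 11.2 ± 1.29 CPM in THP-1, a log2 difference of 0.19 ± 0.30, which is less than its SE. The sign of its difference turned on 1 library, being 0.59 without the KASUMI-1 72 h vehicle library and -0.39 without the KASUMI-1 6 h vehicle library. Fewer cells of a type and less RNA per cell cannot be told apart in such bulk libraries.

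**Figure D2:**
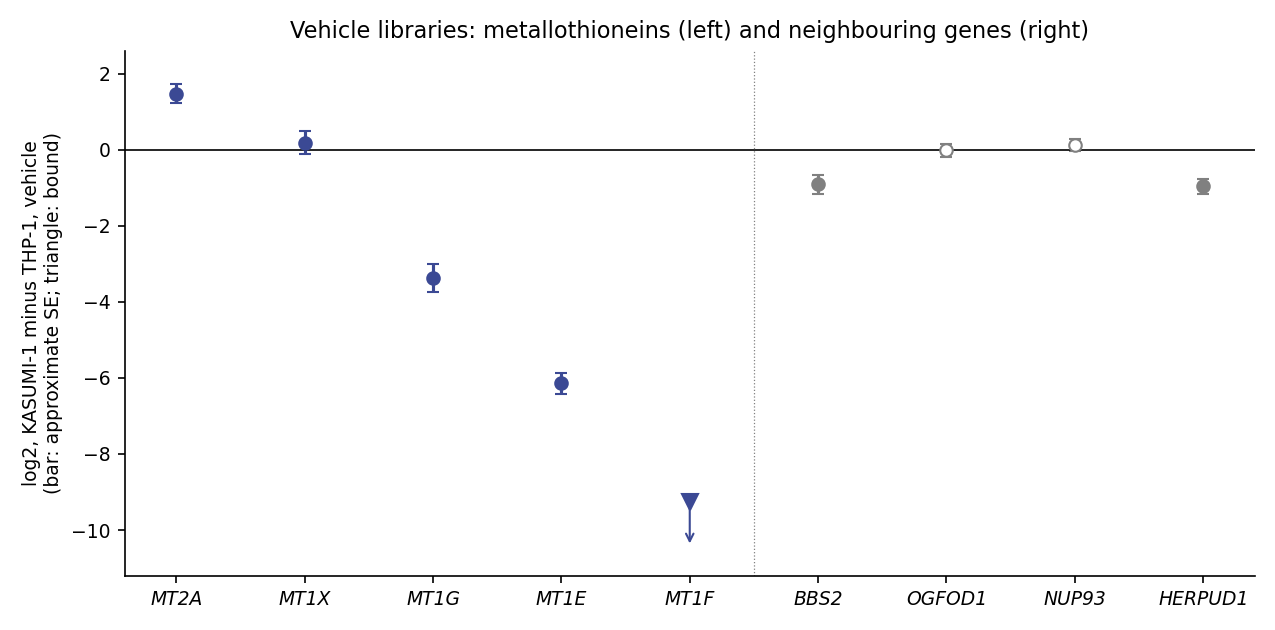
Log2 difference between KASUMI-1 and THP-1 in the 4 vehicle libraries (y axis) for 5 metallothionein genes (blue) and 4 genes that flank the cluster (grey), with bars of 1 approximate SE. The metallothioneins were not tested, a filled grey point passed an adjusted p of 0.05 and an open one did not, and the triangle is the bound for MT1F, at least 614-fold lower. MT2A sits at 1.47 and MT1E at -6.14, while the flanking genes lie between -0.97 and 0.13.

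The same split showed in the reads. Read shares are not corrected for gene length or for reads lost to shared sequence. MT1E has the longer gene model (794 bases, against 397 bases for MT2A). In KASUMI-1, MT2A took 73.3% of metallothionein reads with LSD1i and 73.7% with vehicle at 6 h, and 65.2% with LSD1i and 81.6% with vehicle at 72 h. In THP-1 it took 7.66% with LSD1i and 9.18% with vehicle at 24 h, and 13.9% with LSD1i and 15.3% with vehicle at 72 h. MT1E took 1.36% to 2.58% of the reads in KASUMI-1 and 43.9% to 56.7% in THP-1, so the genes changed places as the main source. MT1F took at most 0.861% in KASUMI-1 and 19.7% to 27.7% in THP-1. In KASUMI-1 at 72 h the share of MT1X was 31.0% with LSD1i (exact 95% interval 27.2% to 34.9%) and 16.3% with vehicle (14.2% to 18.5%).

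**Figure D3:**
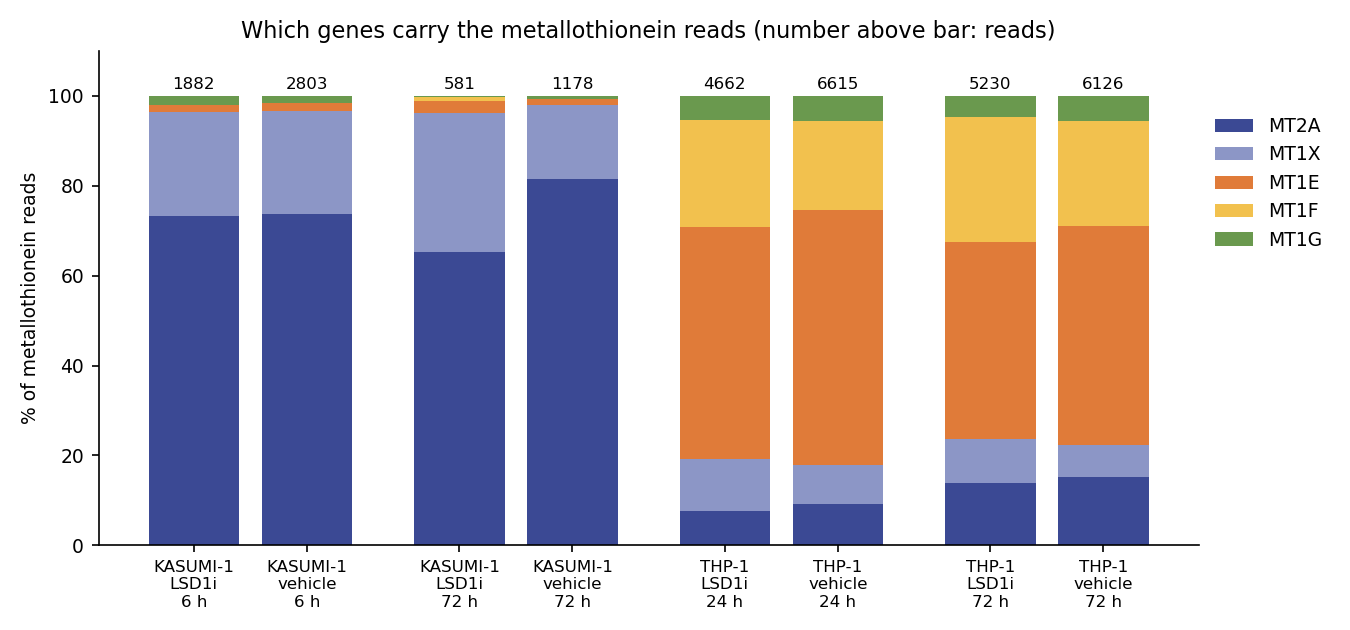
Share of metallothionein reads held by each gene (y axis, %) in each of the 8 libraries, with the number of metallothionein reads above each bar. MT2A fills 65.2% to 81.6% of the KASUMI-1 bars, and MT1E with MT1F fills most of every THP-1 bar.

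With LSD1i, the depth-scaled metallothionein level was lower in 3 of the 4 pairs, most of all in KASUMI-1 at 72 h. Summed over the 8 genes, KASUMI-1 held 1882 reads with LSD1i and 2803 with vehicle at 6 h, and 581 with LSD1i and 1178 with vehicle at 72 h. Scaled for depth the levels were 47.9 CPM with LSD1i and 73.6 CPM with vehicle at 6 h, and 14.2 CPM with LSD1i and 52.4 CPM with vehicle at 72 h. The fold of LSD1i over vehicle was 0.651 (0.614 to 0.690) at 6 h and 0.270 (0.244 to 0.298) at 72 h. The exact 95% intervals cover counting error only, as each arm of a pair was 1 library. They also take the reads as independent, and the reads carried no molecular identifiers. THP-1 held 4662 reads with LSD1i and 6615 with vehicle at 24 h, and 5230 with LSD1i and 6126 with vehicle at 72 h. Its folds were 0.749 (0.722 to 0.778) at 24 h and 1.02 (0.978 to 1.05) at 72 h, where the interval spanned 1 and the log2 ratio of 0.02 was -0.11 when scaled by total counts.

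MT2A was the form with the most reads in KASUMI-1. It had 1380 reads with LSD1i and 2067 with vehicle in KASUMI-1 at 6 h, which were 35.1 and 54.2 CPM, and a fold of 0.647 (0.604 to 0.693). It had 379 reads with LSD1i and 961 with vehicle at 72 h, which were 9.23 and 42.8 CPM, and a fold of 0.216 (0.191 to 0.243). Both LSD1i libraries of KASUMI-1 were below both vehicle libraries. Of 11057 genes compared in the 72 h pair, 1 had a lower ratio than MT2A, and of 10952 compared at 6 h, 129 did. Of 11248 compared in THP-1 at 24 h, 185 did, and of 11372 compared there at 72 h, 4088 did. MT2A was picked with these ratios in view, so its ranks are a description only. In THP-1 it had 357 reads with LSD1i and 607 with vehicle at 24 h, a fold of 0.625 (0.547 to 0.714). At 72 h it had 729 reads with LSD1i and 937 with vehicle, a fold of 0.925 (0.839 to 1.02). The THP-1 groups overlapped, since the LSD1i library at 72 h, at 20.6 CPM, was above the vehicle library at 24 h, at 12.8 CPM.

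MT1X, the other form with appreciable reads in both lines, had 434 reads with LSD1i and 643 with vehicle in KASUMI-1 at 6 h, a fold of 0.654 (0.578 to 0.740). At 72 h it had 180 reads with LSD1i, in the deepest library, and 192 with vehicle, in the shallowest, a fold of 0.513 (0.416 to 0.632). In THP-1 it had 534 reads with LSD1i and 577 with vehicle at 24 h, a fold of 0.984 (0.873 to 1.11), and 508 with LSD1i and 434 with vehicle at 72 h, a fold of 1.39 (1.22 to 1.59). MT1X was thus lower with LSD1i in both KASUMI-1 pairs and higher in the later THP-1 pair. The groups overlapped in KASUMI-1, where LSD1i at 6 h stood at 11.04 CPM and vehicle at 72 h at 8.55 CPM.

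MT1E, the leading form in THP-1, had 2405 reads with LSD1i and 3752 with vehicle at 24 h in that line, a fold of 0.682 (0.647 to 0.718). At 72 h it had 2296 reads with LSD1i and 2981 with vehicle, a fold of 0.916 (0.867 to 0.967). Both THP-1 LSD1i libraries, at 53.8 and 64.9 CPM, were below both vehicle libraries, at 78.9 and 70.8 CPM. In KASUMI-1 it had 28 reads with LSD1i and 50 with vehicle at 6 h, and 15 with LSD1i and 16 with vehicle at 72 h. The folds were 0.543 (0.329 to 0.879) at 6 h and 0.513 (0.236 to 1.11) at 72 h, and the second interval spanned 1 at this depth.

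MT1G followed MT1E in THP-1, with 251 reads with LSD1i and 378 with vehicle at 24 h (fold 0.706, 0.600 to 0.831) and 245 with LSD1i and 339 with vehicle at 72 h (fold 0.859, 0.726 to 1.02). In KASUMI-1 it had 35 reads with LSD1i and 40 with vehicle at 6 h, and 2 with LSD1i and 9 with vehicle at 72 h, with folds of 0.848 (0.523 to 1.37), an interval that spanned 1, at 6 h and 0.122 (0.0128 to 0.587) at 72 h. MT1F went the other way from MT1E at 72 h in THP-1, with 1447 reads with LSD1i and 1429 with vehicle, a fold of 1.204 (1.12 to 1.30). At 24 h it had 1111 reads with LSD1i and 1300 with vehicle, a fold of 0.909 (0.838 to 0.985). In KASUMI-1, MT1F reads appeared in the LSD1i libraries alone, 3 at 6 h and 5 at 72 h against 0 in both vehicle libraries. The exact 95% interval of the fold began at 0.401 at 6 h and at 0.501 at 72 h, so within each pair it spanned 1 at this depth. With both times summed it began at 1.29, but that sum holds 8 reads and takes the times as 1 condition. The members were also picked with these ratios in view, so no rise is read from it. MT1H, MT1M and MT1A had at most 3 reads in any library and no ratio is given.

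Counted over members, few passed 2-fold. At a mean of at least 2 CPM in the pair, 2 members qualified in KASUMI-1 (MT2A and MT1X) and 5 in THP-1. At 72 h in KASUMI-1, 1 of the 2, MT2A, was at least 2-fold lower with LSD1i, where 1.02% of all genes compared were, and in the other pairs no member was (all genes: 0.0274% in KASUMI-1 at 6 h, 0.418% in THP-1 at 24 h and 1.35% in THP-1 at 72 h). No member was at least 2-fold higher in any pair (all genes: 0.785% in KASUMI-1 at 6 h, 3.36% in KASUMI-1 at 72 h, 2.77% in THP-1 at 24 h and 3.25% in THP-1 at 72 h). As the members were picked on these ratios, nothing is read from the counts.

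**Figure D4:**
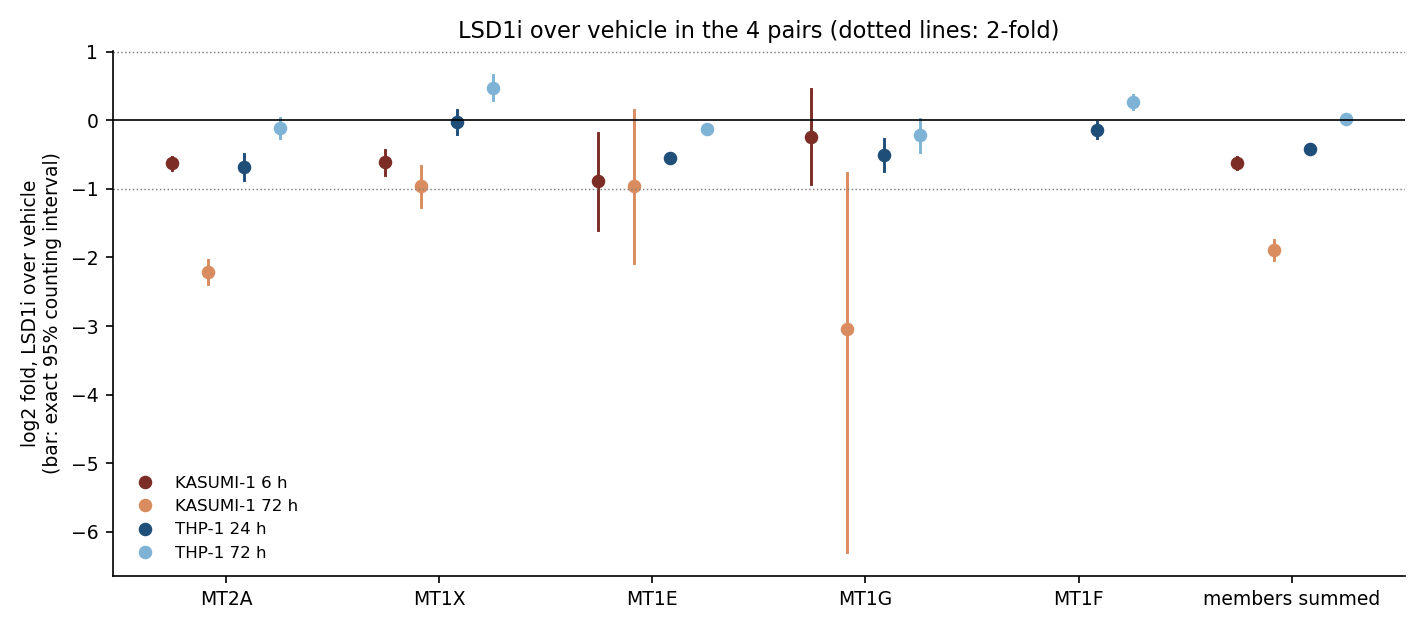
Log2 of the fold of LSD1i over vehicle (y axis) for 5 genes and the 8 members summed in each of the 4 pairs, with exact 95% intervals for counting error, 1 library per arm. MT1F is drawn for THP-1 alone, since it had no vehicle read in KASUMI-1. The KASUMI-1 72 h point of MT2A, a fold of 0.216, lies lowest among the points with narrow intervals, and MT1X and MT1F in THP-1 at 72 h lie above 0.

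Levels also differed between the times. With LSD1i in KASUMI-1, MT2A at 72 h was 0.263-fold (0.234 to 0.295) its 6 h level, and MT1X was 0.397-fold (0.332 to 0.473), both past 2-fold lower, where 0.496% of genes were (1.87% were past 2-fold higher). With vehicle the same comparison gave 0.788 (0.730 to 0.852) for MT2A and 0.506 (0.429 to 0.596) for MT1X, neither past 2-fold (0.66% of genes lower, 0.825% higher). MT1X in KASUMI-1 was therefore lower at 72 h in both arms, whereas the MT2A level with vehicle was nearer to its 6 h level. In THP-1, MT2A at 72 h was 2.58-fold (2.27 to 2.94) its 24 h level with LSD1i, the 1 of 5 members past 2-fold higher (0.876% of genes), with none past 2-fold lower (0.717%). With vehicle it was 1.74-fold (1.57 to 1.94), and no member passed 2-fold (0.515% of genes higher, 0.311% lower). MT1F at 72 h was 1.65-fold (1.52 to 1.78) its 24 h level with LSD1i and 1.24-fold (1.15 to 1.34) with vehicle. MT1E was 1.21-fold (1.14 to 1.28) with LSD1i and 0.898-fold (0.855 to 0.942) with vehicle. Times share their libraries with the ratios above and have 1 library each.

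The other metallothionein names of chromosome 16 added little. MT3, the form best known from brain, had no read in KASUMI-1. In THP-1 it had 10 and 7 reads with LSD1i at 24 and 72 h, against 16 and 23 with vehicle. Its 39 vehicle reads in THP-1 against 0 in KASUMI-1 made it at least 8.78-fold lower in KASUMI-1, with the KASUMI-1 sum set at 3 reads. MT4 had no read, and MT1B and the pseudogenes MT1CP and MT1DP had at most 1 read in any library.

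The genes that flank the metallothionein cluster were tested with edgeR's quasi-likelihood F-test and Benjamini-Hochberg adjustment. In the vehicle comparison, where 26.4% of all genes tested were called higher in KASUMI-1 and 30.1% lower, BBS2, a subunit of the ciliary BBSome, and HERPUD1, a gene of the endoplasmic reticulum stress response, were lower in KASUMI-1, by log2 differences of -0.91 (edgeR adjusted p = 0.00798) and -0.97 (edgeR adjusted p = 0.00167). OGFOD1, an oxygenase that modifies a ribosomal protein, differed by -0.01 and NUP93, a nuclear pore subunit, by 0.13, and neither was called. For LSD1i against vehicle, tested in 1 edgeR fit of all 8 libraries with a term for each pair, OGFOD1 fell by 0.39 on the log2 scale in KASUMI-1 (edgeR adjusted p = 0.0464). That call was lost whichever of the 4 pairs was left out, with adjusted p between 0.0567 and 0.491. HERPUD1 rose by 0.75 on the same scale in THP-1 (edgeR adjusted p = 9.30e-04), a call lost without the 24 h pair (0.0849) or the 72 h pair (0.0505). HERPUD1 in KASUMI-1, at 0.43, missed the threshold (edgeR adjusted p = 0.0506), and BBS2 and NUP93 were not called in either line.

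The metal sensor MTF1 and its other classic target were not called with LSD1i. MTF1 had a log2 change of -0.15 ± 0.14 in KASUMI-1 (edgeR adjusted p = 0.512) and -0.24 ± 0.13 in THP-1 (edgeR adjusted p = 0.352). SLC30A1, a zinc exporter and that target, had 0.16 ± 0.15 in KASUMI-1 (edgeR adjusted p = 0.535) and 0.21 ± 0.14 in THP-1 (edgeR adjusted p = 0.490). In the vehicle comparison MTF1 was lower in KASUMI-1 by 0.64 on the log2 scale (edgeR adjusted p = 0.00781), a call lost without the THP-1 72 h vehicle library (0.0535). HSF1, the heat shock factor, was not called in either line. NR3C1, the glucocorticoid receptor, rose in both (log2 change 0.39 in KASUMI-1, edgeR adjusted p = 0.0476, and 0.43 in THP-1, edgeR adjusted p = 0.0359). The KASUMI-1 call was lost under 6 of 8 alternatives, with adjusted p up to 0.625 and a log2 change of 0.23 without the 72 h pair. The THP-1 call was lost without the 24 h pair (edgeR adjusted p = 0.374) or the 72 h pair (edgeR adjusted p = 0.443) and with line terms in place of pair terms (edgeR adjusted p = 0.169).

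Genes of zinc and copper handling other than metallothioneins formed a list. Of its 38 genes, 32 were tested, and in KASUMI-1 6 fell and 1 rose, with a median log2 change of -0.12 beside 0.02 over all genes tested, of which 5.09% were called lower and 7.02% higher. SCO2, a copper chaperone of cytochrome oxidase, fell by 0.78 (edgeR adjusted p = 0.00103), and the zinc importers SLC39A3, SLC39A4 and SLC39A1 fell by 0.68, 0.64 and 0.58. Without the 72 h pair 2 of the list were called in KASUMI-1. In THP-1 none fell and 2 rose (median 0.03, all genes -0.01; 2.85% called lower and 6.51% higher): SLC31A1, the copper importer, by 1.63 (edgeR adjusted p = 1.35e-07), and SLC30A4, a zinc transporter with at most 23 reads in a library, by 2.27, a call lost with either THP-1 pair left out (edgeR adjusted p = 0.200 and 0.610).

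Metallothioneins also respond to oxidants, glucocorticoids and heat shock, and a list stood for each. The counts stand beside the shares of all genes, 7.02% called higher and 5.09% lower in KASUMI-1 (median log2 change 0.02) and 6.51% higher and 2.85% lower in THP-1 (median -0.01). Of 25 tested genes of oxidative stress, 1 rose and 2 fell in KASUMI-1 (median log2 change -0.02), shares near those of all genes, and 7 rose and 1 fell in THP-1 (median 0.21), where 4 were called with either THP-1 pair left out. HMOX1, heme oxygenase, rose by 1.57 in THP-1 (edgeR adjusted p = 2.58e-04), lost without the 24 h pair (0.0667), and had 0.05 in KASUMI-1. Of 18 tested glucocorticoid-responsive genes, 4 rose and 1 fell in KASUMI-1 (median 0.33), the 1 being near the share of all genes, and 5 rose and 2 fell in THP-1 (median 0.27). Without the KASUMI-1 72 h pair none of them was called in KASUMI-1, and without the THP-1 24 h pair none in THP-1. Of 20 tested heat shock genes, 6 fell in KASUMI-1 (median -0.25; 1 was called without the 72 h pair) and 1, HSPA6, rose in THP-1 (median 0.07), a share near that of all genes. The response itself differed between lines, by the contrast of the 2 coefficients, for few genes of the 4 lists (all genes: 2.62% higher in KASUMI-1, 3.07% lower). It was lower in KASUMI-1 for 3 of 32 genes of metal handling, higher for 1 and lower for 4 of 25 genes of oxidative stress, and lower for 1 of 18 glucocorticoid-responsive and 1 of 20 heat shock genes. Whether these genes bear on the metallothionein levels was not tested.

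**Figure D5:**
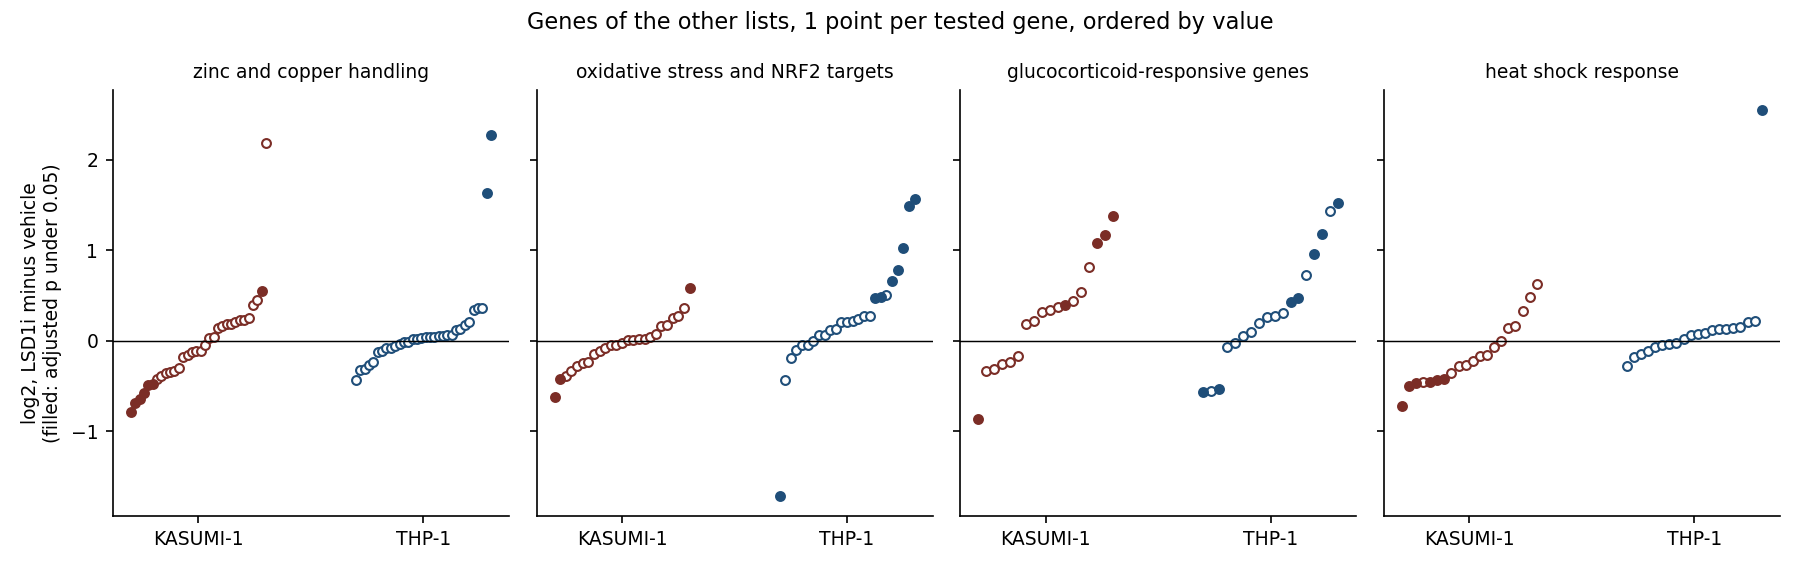
Log2 change with LSD1i (y axis) of the tested genes of 4 lists in KASUMI-1 (red) and THP-1 (blue), 1 point per gene, ordered by value within a line, with filled points past an adjusted p of 0.05. In the zinc and copper panel 6 KASUMI-1 points are filled below 0 and 2 THP-1 points above it.

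The genes whose pattern was most like the summed metallothioneins were found by the root mean square difference of log2 CPM, centred within each line, over the 8 libraries. Among 11646 genes, ALDOC, a brain-type aldolase, was at 0.238, OSR2, a zinc-finger factor, at 0.289, RNASE2, an eosinophil ribonuclease, at 0.295 and ELN, elastin, at 0.307, with a name that is no current gene symbol ahead of them at 0.195. ALDOC had a log2 ratio of LSD1i over vehicle of -0.12 at 6 h and -1.31 at 72 h in KASUMI-1, and of -0.23 at 24 h and -0.41 at 72 h in THP-1. ELN had no read in THP-1, and OSR2 was at most 0.210 CPM in KASUMI-1, so their likeness rests on 1 line. The members are part of the sum, so their own closeness is partly built in. By the same measure MT1E was at 0.291, MT1X at 0.293, MT2A at 0.302 and MT1G at 0.427 from the sum, and MT1F, with 8 reads in all in KASUMI-1, at 1.14.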

How the data were processed

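The authors deposited 1 table of whole-number read counts per gene for 8 libraries. Per the file headers, featureCounts 1.5.2 counted reads on NCBI36 gene models of Ensembl, with no option set for strand or for reads that map to several places. Per the submitters' processing notes, TopHat2 2.0.10, FastQC 0.10.0 and hg18 were also used, and per the labels' protocols libraries came from total RNA with a TruSeq kit.

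Groups came from the labels. Genes were tested by quasi-likelihood F-tests in edgeR 4.0.16 (R 4.3.3) with TMM scaling, filterByExpr at a minimum count of 10 and Benjamini-Hochberg adjustment. For LSD1i against vehicle, 1 fit of 8 libraries (16060 genes) held 4 pair terms and 1 LSD1i coefficient per line, with 2 residual degrees of freedom left. For KASUMI-1 against THP-1, 4 vehicle libraries (15456 genes) were fitted, also with 2; metallothionein genes are given from it without a p. With 1 library a group, the spread behind p-values was the disagreement of the 2 times of a line, pooled over lines. It was moderated by the spread of other genes, with a median prior of 15.6 degrees of freedom (LSD1i fit) and 8.18 (vehicle fit). Nothing says that libraries came from separate cultures. A call is an adjusted p under 0.05. An SE is the log2 change divided by the square root of F, and is approximate. Ratios within a pair use TMM-scaled counts, a prior count of 2 on the log2 scale and none in a fold, and exact conditional binomial 95% intervals. Floors are 3 reads. The tests were run first on simulated counts with known changes, most of which were recovered. These changes were 2-fold or larger, in well-counted genes, and did not vary with time. For the vehicle fit, the 4 simulated libraries had the same scaled mean before the changes, so differences between times were not simulated. Calls among unchanged genes are not given here. The simulated dispersion was 0.0115, that of the LSD1i fit, whereas the vehicle fit had 0.0249. The simulation thus does not vouch for calls of smaller changes.

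The members and gene lists were chosen with earlier results of these data known. Named genes are the 8 members, other metallothionein names of chromosome 16, up to 3 flanking names with reads on each side, 6 genes of regulation (KDM1A, MTF1, SLC30A1, HMOX1, NR3C1, HSF1), up to 4 called genes per list, line and vehicle comparison, and the 5 nearest in pattern. Not all of these are given here. Alternatives were RLE scaling, no filter on low counts, DESeq2 1.42.0, leaving out each pair or library, line terms in place of pair terms, a fit of all 8 libraries for the vehicle comparison, total counts, a prior count of 0.5, and the sum without MT2A or MT2A alone.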

Additional observations from a re-analysis of the deposited data

Results flagged for a closer look

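The response to LSD1i differed between KASUMI-1 and THP-1 for 10 genes of the lists, by the contrast of the lines in the fit of 8 libraries, in which 2.62% of all genes were called higher in KASUMI-1 and 3.07% lower. They were 3 of 32 tested genes of metal handling, 5 of 25 of oxidative stress, 1 of 18 glucocorticoid-responsive and 1 of 20 heat shock genes. Metallothionein genes were not tested for this difference, since they were picked on the ratios. Differences are log2 response in KASUMI-1 minus that in THP-1.

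Among genes of metal handling, SLC31A1, the copper importer, differed by -1.44 (edgeR adjusted p = 1.94e-04), SCO2 by -0.77 (edgeR adjusted p = 0.0185) and SLC39A4, a zinc importer, by -0.66 (edgeR adjusted p = 0.0360). Among oxidative stress genes, NQO1, a quinone reductase, differed by -1.47 (edgeR adjusted p = 1.16e-04), SLC7A11, the cystine importer, by 1.88 (edgeR adjusted p = 3.80e-04), HMOX1 by -1.52 (edgeR adjusted p = 0.0333) and PRDX1, a peroxiredoxin, by -0.75 (edgeR adjusted p = 0.0300). AKR1B1, an aldo-keto reductase outside the naming rule and given after its values were seen, differed by -0.80 (edgeR adjusted p = 0.0126). HSPA6, a heat-inducible chaperone, differed by -1.92 (edgeR adjusted p = 0.00574), and CEBPD, a glucocorticoid-responsive factor, by -0.92 (edgeR adjusted p = 0.0445). With any 1 pair left out, SLC31A1, SLC7A11 and NQO1 kept their calls and each of the other 7 lost its call at least once. All 10 calls were lost with line terms in place of pair terms.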

How the results depend on the processing

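In the vehicle comparison the log2 difference of MT2A was between 1.11 and 1.90 under 8 alternatives. Each of the 8 kept a vehicle library of a time that the lines did not share. At 72 h alone, the shared time, MT2A stood at 42.8 CPM in KASUMI-1 and 22.3 CPM in THP-1. The difference of MT1E was between -6.71 and -5.83 and that of MT1G between -4.31 and -2.93, while that of MT1X ran from -0.39 to 0.59. The number of genes called with LSD1i depended on the pair terms. It was 1945 in KASUMI-1, 1503 in THP-1 and 914 for the difference between lines, and with no replicate block it was 100, 454 and 22, in that order. The pairing comes from line and time in the labels, and no replicate number pairs libraries. With 1 pair left out the counts were 306 to 2741 in KASUMI-1, 386 to 2211 in THP-1 and 166 to 1705 for the difference. The vehicle comparison had 8736 calls, and 7157 to 8864 with 1 library left out, where the lone library is assumed to vary like the other line. DESeq2 called 980 genes in THP-1. Of the KASUMI-1 calls 58.0% were higher with LSD1i, and 44.5% by DESeq2, and for the difference 46.1%, and 33.0% by DESeq2. Total counts in place of TMM shifted log2 ratios of all genes by 0.11 in KASUMI-1 at 6 h and by -0.13 in THP-1 at 72 h. The summed metallothionein log2 ratio was -0.62 in KASUMI-1 at 6 h (-0.51 by total counts), -1.88 in KASUMI-1 at 72 h (-0.96 without MT2A, -2.20 for MT2A alone), -0.42 in THP-1 at 24 h (-0.48 by total counts, -0.67 for MT2A alone) and 0.02 in THP-1 at 72 h (-0.11 by total counts and for MT2A alone). Over 92 results for single genes and lists, the vehicle differences of metallothionein genes among them, 733 values under alternatives were compared. Of these, 593 kept a call with its direction, stayed uncalled with either sign, or were list counts within 1.5 times. A further 110 lost the call, 5 gained one, 25 list counts moved by over 1.5 times and 0 reversed a called direction. The tally scored the metallothionein genes by an adjusted p that is not used as a test here. MT1F passed the filter through its THP-1 reads alone, so its call was bound to be kept. Nothing about metallothionein genes is read from the tally. The causes were not tested. Depth limits MT1E, MT1F and MT1G in KASUMI-1, and MT1H, MT1M and MT1A in both lines.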
